A study of Bos taurus with 8 samples.

Results

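Iron handling was followed through 7 genes, *FTH1*, *FTL*, *TFRC*, *SLC40A1*, *SLC39A14*, *NCOA4* and *IREB2*, among the 21880 genes counted in single cells of bovine skeletal muscle and of the cultures grown from it. The genes were chosen by their measured values in these cells, across cell types and timepoints, so their levels by type and timepoint are given as a description without p-values. Each of the 7 symbols matched 1 gene of the matrices.

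Iron that enters a cell is used, exported or stored. Storage is in ferritin, a hollow protein shell of heavy subunits (*FTH1*), which oxidise iron, and light subunits (*FTL*), which help form the mineral core. *TFRC*, the transferrin receptor, takes up transferrin-bound iron, *SLC39A14* (ZIP14) imports iron that is not bound to transferrin, and *SLC40A1* (ferroportin) is the exporter through which macrophages return iron recycled from old red cells. *NCOA4* carries ferritin to the lysosome for breakdown, and *IREB2* (IRP2) is an RNA-binding protein that, when iron is scarce, blocks ferritin translation and stabilises the *TFRC* transcript. Much of ferritin control is therefore translational, and transcript levels do not give protein levels.

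Cells came from semitendinosus muscle of 10 Belgian Blue cattle, 5 calves and 5 adults, isolated with collagenase and a red cell lysis step. Each of 5 timepoints had 1 count matrix, treated here as 1 library, although the labels list a run 1 and a run 2 at 3 of them, P0, P2 and P5: freshly isolated cells (Muscle), cells that had attached to fibronectin within 72 h, cultured without serum (passage 0, P0), and cultures at passages 2, 5 and 8 (P2, P5 and P8), grown in the same medium. From P2 on, each of 9 animals was represented by 1 kind of culture, unsorted cells on fibronectin, sorted satellite cells (SCs) on laminin or sorted fibro-adipogenic progenitors (FAPs) on collagen, with 3 animals per kind; the remaining animal was sampled in Muscle only. Animals were pooled within a library and told apart by genotype, so the donor was the replicate, while timepoint and library cannot be told apart. The label of the P0 sample also names the sorted kinds of culture, whereas the methods place the sort after P0.

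The 36129 annotated cells had a median of 4184 UMIs (unique molecular identifiers, each counting 1 captured transcript) in Muscle and of 18340 to 27240 in the 4 culture libraries, and any 2 libraries shared under 30 cell barcodes. Levels are CPM, the UMIs of a gene per 1000000 UMIs of all cells of a type, donor and library, for donors with at least 10 such cells. The deposited cell types were checked against marker genes: 33 of 37 marker-by-type pairs in Muscle and 28 of 31 at P0 were highest in their own type, and the SC markers *ITGA7* and *DES* were among the exceptions in both. At P0 the 3 exceptions were all SC markers, with *CHRDL2* as the third, so that 3 of 6 SC markers were not highest in P0 SCs, and the 6 summed to 199 CPM in P0 SCs against 350 in P0 SMMCs (1890 and 1370 in Muscle). FAPs and SCs were present throughout, vascular and lymphatic endothelial cells (VECs and LECs), smooth muscle and mesenchymal cells (SMMCs) and monocytes or macrophages in Muscle and at P0, and lymphocytes in Muscle with 3 or more donors. Monocytes and macrophages share 1 deposited label, often shortened below to macrophages, and the 2 cannot be told apart by it.

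*FTH1* was the most abundant of the 7 transcripts in every type with 3 or more donors, and in Muscle it was highest in monocytes or macrophages. There the donors ranged from 7740 to 14945 CPM, with a median of 12765, above every donor of every other type. The mean of 12396 ± 2154 CPM (SD, n = 10) was 3.68 times that of LECs, which came next at 3364 ± 237 (n = 4 donors, at 3047, 3357, 3440 and 3613). SMMCs (2925 ± 202), FAPs (2722 ± 470), VECs (2557 ± 217), SCs (1935 ± 338) and lymphocytes (1872 ± 250; n = 10 each) followed, and each overlapped its neighbour in the order. *FTL* had the same 2 types at the top: 4373 ± 801 CPM in monocytes or macrophages (range 3127 to 6060) and 1384 ± 213 in LECs (1139, 1275, 1532 and 1589), and neither overlapped the type ranked after it. FAPs (357 ± 100) and SMMCs (316 ± 87.3) were lowest in *FTL*.

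The exporter *SLC40A1* was also highest in muscle macrophages, at 340 ± 139 CPM (n = 10; lowest 149, median 359, highest 621), 5.32 times the mean of LECs, and the ranges did not overlap. FAPs (41.1 ± 10.9), SMMCs (42.4 ± 25.4), SCs (30.03 ± 16.1) and VECs (21.2 ± 8.42) held lower levels that overlapped one another. Lymphocytes served as the background type, with 2.18 ± 4.61 CPM from 2 UMIs in 188 cells, 8 of 10 donors being at 0. With each cell thinned to 2000 UMIs, 30.2 ± 13.5% of macrophages had an *SLC40A1* UMI (43.6 ± 11.3% unthinned, median depth 6108), against 8.63 ± 4.30% of FAPs (20.0 ± 3.75%, median 6213) and 1.11 ± 2.34% of lymphocytes (1.11 ± 2.34%, median 4407), as means over 10 donors. Thinning left out 4 macrophages, 38 FAPs and 2 lymphocytes with fewer UMIs. The only donor with enough neutrophils had 25 *SLC40A1* UMIs in 23 cells, or 569 CPM.

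The other 4 genes were at low levels in Muscle. *NCOA4*, the ferritin cargo receptor, had its highest mean in macrophages (122 ± 20.8 CPM), followed by lymphocytes (77.5 ± 37.6), whose ranges overlapped, and stood between 24.0 and 46.9 in the other types. *SLC39A14* lay between 5.30 in SMMCs and 22.2 in FAPs, although LECs, at 11.5 over 4 donors, had 42.9 with UMIs summed over all their cells. *IREB2* lay between 5.92 in lymphocytes and 23.3 in LECs, and *TFRC* between 1.18 in macrophages and 5.64 in SMMCs. These *TFRC* means rested on 1 to 26 UMIs per type, and 7 of 10 macrophage donors were at 0, so no order among types was detectable at this depth.

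**Figure D1:**
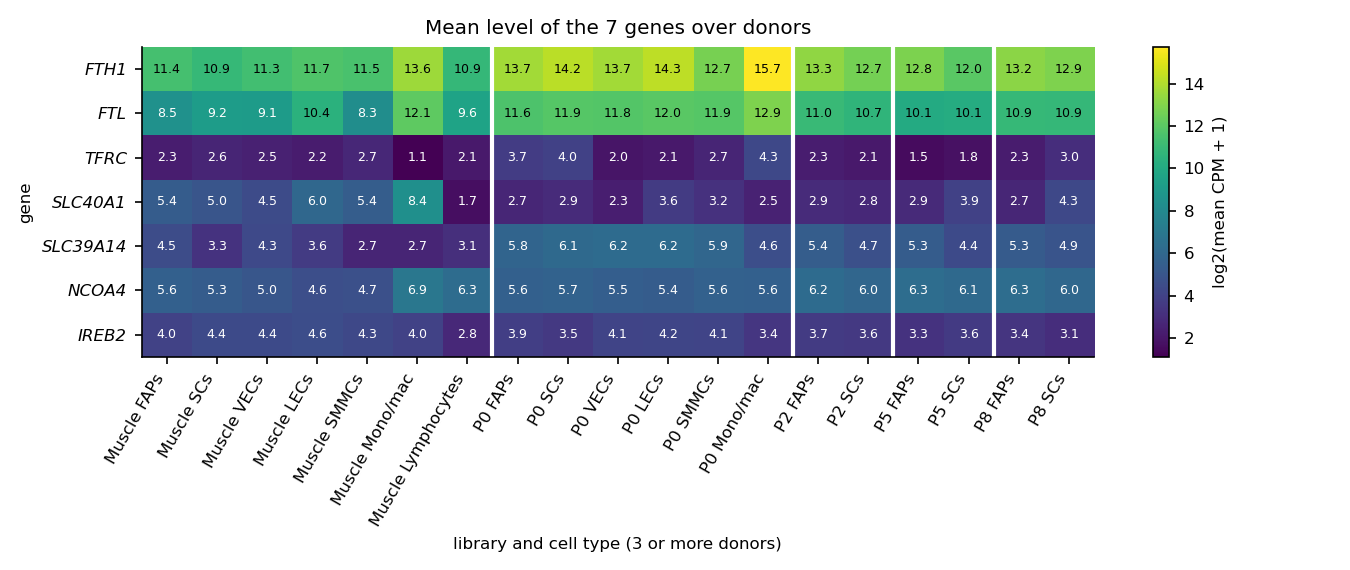
Mean level of the 7 genes (rows) in each cell type and library with 3 or more donors (columns), as log2 of the mean CPM plus 1, with the value in each cell; white lines separate libraries. The ferritin rows are the brightest throughout, and *SLC40A1* is brightest in muscle monocytes or macrophages (Mono/mac), at 8.4.

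The first comparison set P0 against Muscle and described what happened within each type over the first 72 h of culture. Both ferritin transcripts were higher at P0 in all 6 types compared, and *SLC40A1* was lower. In FAPs, *FTH1* ranged from 1871 to 3587 CPM over the 10 muscle donors (median 2642) and from 8411 to 16240 over the 9 P0 donors (median 13073), and the groups did not overlap. In SCs the ranges were 1402 to 2491 (median 1840) and 13360 to 23201 (median 19537). The fitted log2 fold change (log2FC, P0 over Muscle, ± SE) of *FTH1* was 3.27 ± 0.11 in SCs, 2.43 ± 0.37 in LECs, 2.39 ± 0.13 in FAPs, 2.36 ± 0.08 in VECs, 2.05 ± 0.15 in monocytes or macrophages and 1.21 ± 0.12 in SMMCs. In each type every donor sampled at both timepoints was higher at P0 (9 of 9 in FAPs, SCs and VECs, 7 of 7 in SMMCs and macrophages, 3 of 3 in LECs). At P0 macrophages had 54063 ± 14230 CPM (37968 to 82285, median 49398, n = 7), that is 5.41% of their UMIs.

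*FTL* had muscle and P0 ranges that stood apart in 5 of the 6 types. In FAPs it went from 237 to 527 CPM in Muscle (median 335) to 2362 to 4183 at P0 (median 3067), with a log2FC of 3.27 ± 0.15. SMMCs, lowest in Muscle, had 2603 to 5093 at P0 (median 3656) and the largest fitted value of the 6, 3.56 ± 0.15. VECs (2.65 ± 0.10), SCs (2.62 ± 0.16) and LECs (1.44 ± 0.13) followed. In macrophages the ranges overlapped (3127 to 6060 in Muscle, 3902 to 11282 at P0), 5 of 7 donors were higher, and log2FC was 0.70 ± 0.18.

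The balance of the subunits therefore moved in different directions by type. Both counts come from tags at the 3′ ends of transcripts, so the ratio of *FTH1* to *FTL* UMIs needs no scaling by length. It was 9.91 ± 2.72 in muscle SMMCs (n = 10) and 1.81 ± 0.32 at P0 (n = 7), with ranges of 6.11 to 15.1 and 1.395 to 2.28. In macrophages it was 2.85 ± 0.37 in Muscle (range 2.45 to 3.49) and 7.68 ± 1.90 at P0 (4.86 to 9.73). FAPs went from 8.13 ± 2.58 to 4.25 ± 0.63, and SCs from 3.49 ± 1.04 to 5.38 ± 0.93, both with overlapping ranges. Ferritin genes have processed copies in mammalian genomes, and whether their reads were shared with such copies was not tested.

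**Figure D2:**
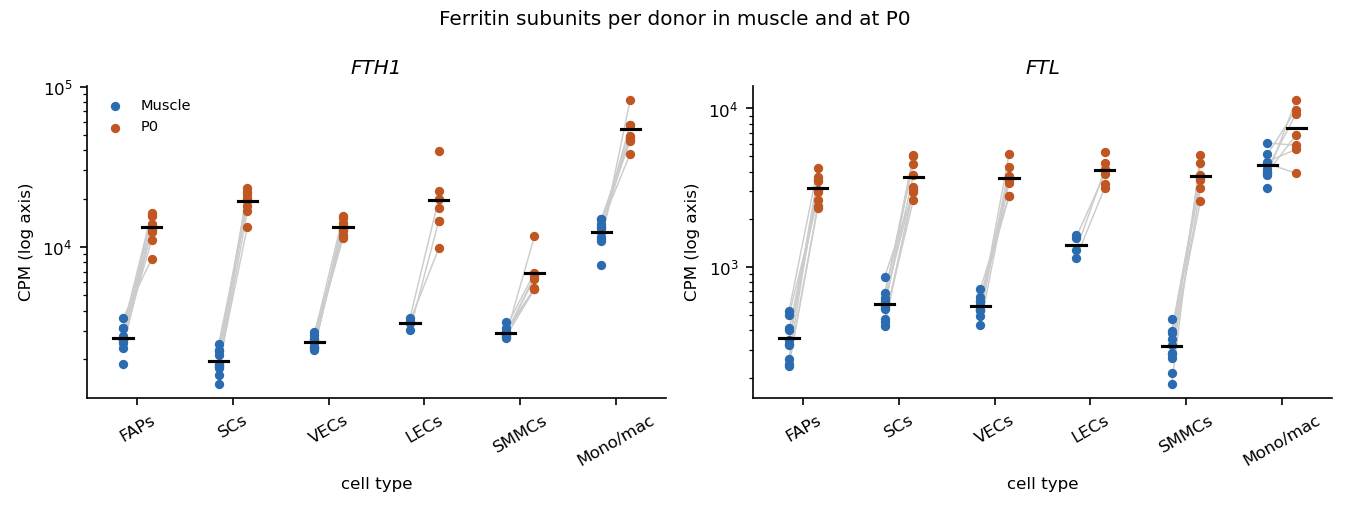
*FTH1* (left) and *FTL* (right) in CPM on a log axis, with 1 point per donor in Muscle (blue) and at P0 (orange) by cell type; grey lines join the same donor and black bars are means over donors. P0 points lie above all muscle points of the type except for *FTL* in monocytes or macrophages, where the ranges overlap.

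*SLC40A1* went the other way. In macrophages it ranged from 149 to 621 CPM in Muscle and from 0 to 16.3 at P0, where 4 of 7 donors were at 0 and 7 UMIs were counted in 125 cells. The log2FC was -5.73 ± 0.51 and all 7 paired donors were lower. In FAPs the levels were 26.9 to 56.6 (median 38.4) in Muscle and 3.78 to 6.91 (median 5.39) at P0, with a log2FC of -2.75 ± 0.15 and 9 of 9 donors lower. In SCs (30.03 ± 16.1 to 6.70 ± 3.20), VECs (21.2 ± 8.42 to 4.08 ± 2.83), SMMCs (42.4 ± 25.4 to 8.38 ± 3.82) and LECs (63.9 ± 30.8 to 11.5 ± 8.52) the gene was below the count filter of the fit. Of their paired donors 8 of 9, 9 of 9, 6 of 7 and 3 of 3 were lower at P0. After the decline no type stood out: all 6 P0 means lay between 4.08 and 11.5 CPM, with overlapping ranges.

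Of the importers, *SLC39A14* was higher at P0 in all 6 types and *TFRC* in 3. *SLC39A14* was higher in every donor sampled at both timepoints. SCs went from 8.65 ± 9.27 to 68.0 ± 9.24 CPM, with a log2FC of 2.68 ± 0.28. VECs (1.78 ± 0.19) and FAPs (1.43 ± 0.17) also had a fitted value, while SMMCs (5.30 ± 6.60 to 60.04 ± 14.9) and macrophages (5.34 ± 4.43 to 24.1 ± 11.9) were below the filter. LECs had 2.42 ± 0.63, where the muscle side held 3 UMIs in 47 cells with 2 of 4 donors at 0. Leaving out 1 muscle donor gave 2.05 (without donor 10) to 3.52 (without donor 7). The muscle LEC mean over these 4 donors was 11.5 CPM. With UMIs summed over all muscle LECs, donors under 10 cells included, the level was 42.9 CPM, closer to the P0 mean of 74.1. *TFRC* passed the filter only in FAPs, where the muscle donors lay at 0 to 12.7 CPM (median 3.06) and the P0 donors at 6.10 to 16.7 (median 13.2), with a log2FC of 1.92 ± 0.33 and 9 of 9 donors higher. SCs went from 5.23 ± 4.66 to 14.7 ± 4.25 (8 of 9 donors higher) and macrophages from 1.18 ± 2.07 to 18.3 ± 13.4 (6 of 7 higher). VECs had 4.63 ± 2.19 in Muscle and 2.88 ± 2.04 at P0, with 6 of 9 donors lower, and SMMCs (5.64 ± 5.95 and 5.28 ± 3.10) and LECs (3.71 ± 7.43 and 3.36 ± 4.72) also had no higher mean at P0.

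*NCOA4* was lower at P0 in macrophages, at 48.0 ± 18.5 against 122 ± 20.8 CPM, with a log2FC of -1.35 ± 0.20, ranges apart and all 7 paired donors lower. SMMCs had 24.5 ± 12.7 in Muscle and 48.6 ± 9.13 at P0, with all 7 paired donors higher. In SMMCs the gene was below the count filter, with 54 UMIs in 548 muscle cells. Means were also higher at P0 in SCs (39.7 ± 12.7 to 52.2 ± 8.52), VECs (32.1 ± 8.61 to 43.4 ± 7.45) and LECs (24.0 ± 16.2 to 40.7 ± 18.3). Ranges overlapped in these types and in SMMCs. In FAPs the 2 means were 46.9 ± 11.03 and 48.0 ± 2.34, with a log2FC of 0.19 ± 0.09 that was -0.27 after thinning to the smallest total. *IREB2* was at 15.4 ± 6.20 and 13.6 ± 1.23 in FAPs, and in SCs at 20.2 ± 6.83 and 10.6 ± 2.59 with 9 of 9 donors lower.

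A gene was called when edgeR's quasi-likelihood test gave a Benjamini-Hochberg adjusted p below 0.05 over all genes tested and the absolute log2FC exceeded 1. In FAPs 5 of the 7 tested members were past that rule, where 43.4% of the 9208 genes tested were called. The counts were 3 of 4 in SCs (34.3% of all genes), 3 of 5 in VECs (35.1%), 2 of 2 in SMMCs (36.4%), 3 of 4 in macrophages (34.6%) and 3 of 3 in LECs (29.6%). As the members were chosen by these contrasts, nothing is read from those counts.

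Values that moved along with the timepoint stand beside these levels. The median depth per cell was higher at P0, as given above. Summed over 6 genes of muscle fibres, the mean level was 263 to 1043 CPM in the 7 muscle types and 0.454 to 1.61 in the 6 P0 types. The 6 macrophage markers summed to 19.1 to 76.2 CPM in the 5 non-immune muscle types and to 13.2 to 24.6 in the same types at P0. In macrophages themselves they summed to 3794 in Muscle and 1689 at P0. The 4 FAP markers summed to 129 CPM in macrophages in Muscle and 1455 at P0, 257 and 1636 in SCs, 39.9 and 577 in LECs, 474 and 1197 in SMMCs and 334 and 402 in VECs, beside 25742 and 4171 in FAPs. The summed red cell markers (6 of 7 in the matrices) averaged at most 13.0 CPM in any type in Muscle, in macrophages, and 3.26 at P0. In P0 macrophages the 4 neutrophil markers summed to 3530 CPM (1837 to 4803; 2 of 4 at 0), against 669 in Muscle (0 to 2298; 1 of 4 at 0), and in P0 LECs the 6 lymphocyte markers summed to 1096 (225 to 3767; 5 of 6 at 0), against 50.4. In macrophages the 5 LEC markers summed to 719 CPM in Muscle (341 to 1207) and to 25.3 at P0 (0 to 58.2; 1 of 5 at 0), where *SLC40A1* was also lower. These 5 were *PROX1*, *LYVE1*, *FLT4*, *CCL21* and *MMRN1*, and the sum does not show which of them macrophages carried. LEC markers went from 48.8 to 2.41 in SCs. The 4 glial markers went from 505 to 35.0 in VECs, from 375 to 46.9 in SCs and from 326 to 21.6 in LECs, tenocyte markers from 498 to 11.7 in FAPs and from 935 to 126 in SMMCs, SMMC markers from 320 to 73.8 in SCs, and SC markers from 179 to 23.4 in FAPs. Lymphocyte markers went from 5.18 to 199 in VECs (3 of 6 at 0 at P0) and from 1.05 to 42.8 in SMMCs (5 of 6 at 0 at P0). Neutrophil markers went from 3.62 to 51.6 in FAPs (1 of 4 at 0 at P0) and from 2.02 to 34.7 in SCs (2 of 4 at 0 at P0). In each of these pairs from the LEC markers on, the muscle and P0 ranges stood apart. Types' own markers were lower at P0 as well, at 1826 against 12208 in LECs and 3410 against 12835 in SMMCs. The share of mitochondrial UMIs (the median over a donor's cells, averaged over donors with no minimum of cells) was 3.38% in muscle macrophages (2.88 to 3.95) and 2.08% at P0 (1.75 to 2.49), 3.98% and 2.50% in SMMCs, 3.27% and 1.91% in LECs and 2.27% and 1.43% in VECs, all with ranges apart, and 3.38% and 2.99% in SCs and 2.66% and 2.99% in FAPs, with overlapping ranges. The part of these markers and shares in the values of the members was not tested. The alternative that left ferritin and mitochondrial UMIs out of the totals moved no member's mean by more than its SD except *NCOA4* in P0 FAPs, to 50.4.

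**Figure D3:**
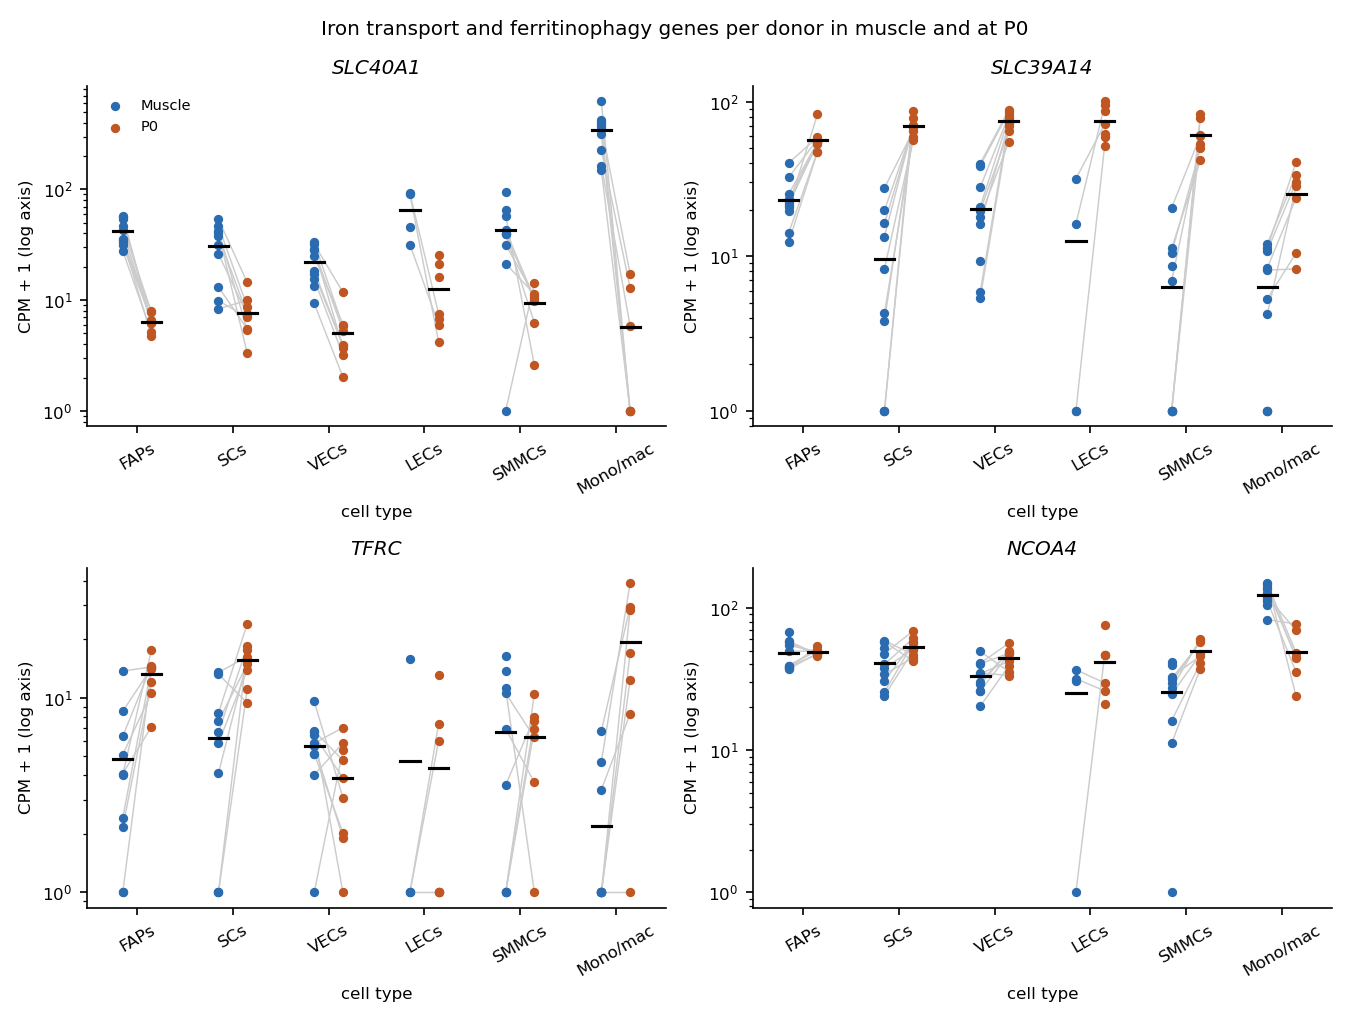
*SLC40A1*, *SLC39A14*, *TFRC* and *NCOA4* in CPM plus 1 on a log axis, with 1 point per donor in Muscle (blue) and at P0 (orange) by cell type; grey lines join the same donor, black bars are means, and points at 1 are donors without a UMI. *SLC40A1* drops furthest in monocytes or macrophages (Mono/mac), paired *SLC39A14* points lie higher at P0 in all 6 types, and *NCOA4* drops in macrophages.

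Beyond the 7 genes, 98 other genes of iron metabolism in 6 lists were followed, and those that passed the count filter were tested in the same fits. In FAPs, 38 of 74 tested were called, 27 higher and 11 lower at P0 (51.4%, beside 43.4% of all genes), and their median log2FC was 0.61 against 0.03 over all genes. In VECs 21 of 45 (46.7%), in SMMCs 12 of 28 (42.9%), in SCs 15 of 44 (34.1%), in macrophages 8 of 28 (28.6%) and in LECs 7 of 25 (28.0%) were called. The shares of all genes are given above: those of the lists were higher in FAPs, VECs and SMMCs, lower in macrophages and LECs, and nearly equal in SCs, and no test of these differences was made.

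*GPX4* rose in all 6 types. It is the selenoenzyme that reduces lipid peroxides, which form in the presence of iron. In FAPs it went from 157 ± 33.0 to 1263 ± 68.6 CPM (log2FC 3.11 ± 0.10, adjusted p = 2.6e-18 by edgeR), and it ranged over the types from 2.02 ± 0.18 in LECs to 3.72 ± 0.21 in VECs. Of the lipid peroxidation list, *ACSL4*, which activates polyunsaturated fatty acids, rose in 5 types (1.401 to 2.18), and *LPCAT3* in FAPs (3.05 ± 0.17) and SCs (1.94 ± 0.22). In FAPs 3 of its 5 tested genes rose and 1 fell (80.0%, beside 43.4% of all genes), the latter being *AIFM2*, a suppressor of ferroptosis (-1.09 ± 0.16, from 30.1 ± 10.2 to 12.3 ± 2.05 CPM). Among 32 genes of mitochondrial iron and iron-sulphur clusters, 10 of 29 tested rose and none fell in FAPs (34.5% called, beside 43.4% of all genes), led by *CISD1* (2.36 ± 0.10), *HSPA9* (1.93 ± 0.15) and *BOLA1* (1.60 ± 0.19). *BOLA3*, a factor of iron-sulphur cluster assembly, rose in macrophages (2.35 ± 0.28), SMMCs (1.79 ± 0.16), VECs (1.75 ± 0.15) and SCs (1.25 ± 0.17). *SLC25A37*, a mitochondrial iron importer, fell in VECs (-1.58 ± 0.24), and its relative *SLC25A28* fell in SCs (-1.76 ± 0.17).

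In the haem list, 9 of 19 tested genes rose and 3 fell in FAPs (63.2%, beside 43.4%). *HMOX1*, the inducible enzyme that frees iron from haem, differed in direction between types. It rose in VECs from 29.8 ± 8.20 to 215 ± 89.2 CPM (log2FC 2.70 ± 0.22, adjusted p = 2.2e-10 by edgeR) and in SCs (1.92 ± 0.49, adjusted p = 0.0016) and FAPs (1.67 ± 0.36, adjusted p = 0.00032), and in macrophages it fell from 441 ± 459 to 131 ± 71.3 (-1.76 ± 0.53, adjusted p = 0.0084), where 1 of 7 paired donors was higher. The constitutive *HMOX2* rose in FAPs (2.38 ± 0.13). *PGRMC1*, a haem-binding membrane protein, fell in 5 types, with values from -2.86 ± 0.46 in LECs to -1.47 ± 0.09 in FAPs. Among the uptake genes, 5 of 11 tested rose and 4 fell in FAPs (81.8%, beside 43.4%). *SCARA5*, a ferritin receptor, fell from 514 ± 123 to 8.38 ± 17.5 CPM (-5.76 ± 0.76, 9 of 9 donors, and called under every other setting, at -4.08 with DESeq2 to -6.94 with the donor as a replicate block). The metalloreductase *STEAP1* (4.75 ± 0.33) and the iron transporter *SLC11A1* (6.07 ± 0.60) rose there, and *SLC11A1* also rose in macrophages (2.11 ± 0.43). *BMP2*, a ligand of the pathway that controls hepcidin in the liver, fell in LECs (-2.98 ± 0.33), SMMCs (-3.31 ± 0.23) and FAPs (-2.52 ± 0.31). *ACO1* (IRP1), the partner of *IREB2*, rose in SCs (1.55 ± 0.14) and VECs (1.52 ± 0.15), and *FBXL5*, which marks IRP2 for degradation, fell in FAPs (-1.13 ± 0.10), or had -0.85 without the filter on low counts, under the fold rule.

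The next comparisons followed FAPs and SCs through passaging. FAPs were compared in the 6 donors of unsorted and FAP cultures and SCs in the 6 donors of unsorted and SC cultures. From P0 to P2, the fitted values of both ferritin genes were below 0 in both types, and further below in SCs. Levels of other cell types' markers also moved over these steps and are given after the passages. In SCs, *FTH1* ranged from 18101 to 23201 CPM at P0 (6 donors) and from 3128 to 10775 at P2, with a log2FC of -1.62 ± 0.31, and *FTL* had -1.40 ± 0.20, both with ranges apart and 6 of 6 donors lower. In FAPs, *FTH1* was also lower in 6 of 6 donors, from 13318 ± 3131 to 11109 ± 2129, but with overlapping ranges and a log2FC of -0.11 ± 0.19, and *FTL* had -0.39 ± 0.15. The fits also differed in kind of culture, as the FAP fit left out SC cultures and the SC fit FAP cultures. At P2, *FTH1* in SCs was at 3128, 3470 and 4740 CPM in SC cultures and at 6684, 10158 and 10775 in unsorted ones. In donors of unsorted cultures alone, its mean went from 15865 to 12556 in FAPs and from 21635 to 9205 in SCs. FAPs of SC cultures, outside the fit, had 13106 at P0 (n = 3) and 6656 at P2 (n = 2). Whether the 2 types differed was not tested.

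*TFRC* dropped in both. The FAP donors lay at 13.1 to 16.7 CPM at P0 and at 1.00 to 2.86 at P2 (log2FC -2.51 ± 0.20), and the SC donors at 8.43 to 23.0 and 1.79 to 5.70 (-2.01 ± 0.28). *SLC39A14* fell in SCs, from 68.0 ± 10.0 to 25.1 ± 10.6 (-1.46 ± 0.26), and was at 51.6 ± 4.40 and 49.5 ± 6.05 in FAPs (0.10 ± 0.10, or -0.06 with library totals). *NCOA4* was higher at P2 in 6 of 6 FAP donors, at 84.3 ± 8.83 against 47.4 ± 2.02, with ranges apart and a log2FC of 0.98 ± 0.07, just under the call rule. *SLC40A1* was higher at P2 in 6 of 6 FAP donors (7.70 ± 2.51 against 5.12 ± 1.08) and lower in 6 of 6 SC donors (5.01 ± 1.74 against 6.70 ± 1.53), with overlapping ranges in both. In FAPs 1 of 7 members was past the call rule beside 23.3% of all genes, and in SCs 4 of 7 beside 8.73%, again a description.

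Of the other iron genes, 17 of 81 were called in FAPs (10 higher, 7 lower; 21.0%, beside 23.3%) and 8 of 74 in SCs (4 higher, 4 lower; 10.8%, beside 8.73%). *SCARA5* rose again in FAPs, from 2.16 ± 0.73 to 101.2 ± 108 CPM (5.66 ± 0.69, adjusted p = 8.4e-06 by edgeR, 6 of 6 donors), and *SLC11A1* fell (-2.47 ± 0.22). *HMOX1* fell in FAPs (-1.57 ± 0.30) and SCs (-1.52 ± 0.37), and *CISD1* (-1.44 ± 0.11), *HSPA9* (-1.27 ± 0.12) and *CISD2* (-1.17 ± 0.09) fell in FAPs. *NEO1*, a co-receptor of hemojuvelin, rose in both (1.31 ± 0.22 in FAPs, 1.25 ± 0.18 in SCs), although in SCs thinned to the smallest total it was 0.59 and not called (adjusted p = 0.13 by edgeR). Scaling by library totals in place of TMM turned the split of all calls in FAPs from 1551 higher and 1120 lower to 1268 and 1468.

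Later passages brought smaller differences. From P2 to P5, *SLC40A1* in SCs went from 3.21 to 8.14 CPM to 7.11 to 18.2, higher in 6 of 6 donors with a log2FC of 1.38 ± 0.27, while in FAPs it was 7.70 ± 2.51 and 7.95 ± 1.29. *FTH1* was lower at P5 in 6 of 6 donors of both types, with overlapping ranges (log2FC -0.22 ± 0.18 in FAPs, -0.72 ± 0.38 in SCs), and so was *FTL* in FAPs (-0.85 ± 0.17). In the SCs, 1 of 7 members was past the call rule beside 0.195% of all genes, or 21 of 10781, and in FAPs 0 of 7 beside 3.34%. *STEAP4*, a metalloreductase, was the only other iron gene called in FAPs (1.00 ± 0.23, adjusted p = 0.012 by edgeR), on the edge of the fold rule, and it was under that rule without the filter (0.99), with library totals (0.90) and after thinning (0.98). In SCs 0 of 80 other iron genes were called by edgeR, with 16 at an unadjusted p under 0.05 and 1 called by DESeq2. With the donor as a replicate block, 246 of the 10781 genes (2.28%) were called in SCs, among them 2 other iron genes and the same 1 member, *SLC40A1*, at 1.41. After thinning to the smallest total, *SLC40A1* in SCs was no longer past the call rule.

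From P5 to P8 in FAPs, *TFRC* was higher in 6 of 6 donors, at 1.86 to 5.81 against 0.855 to 1.95 CPM with a log2FC of 1.17 ± 0.31, and *FTL* was higher in 6 of 6 (2036 ± 313 against 1183 ± 296, 0.65 ± 0.16). The other 5 members had absolute log2FC values of at most 0.51. *TFRC* was the only member past the call rule, and after thinning to the smallest total it was not. The share of mitochondrial UMIs in FAPs, taken over the 9 donors, was 3.79% at P5 (3.23 to 4.23) and 2.08% at P8 (1.81 to 2.30), with ranges apart, and its part in these values was not tested. Over all genes, calls were 2.02%, with 167 higher and 54 lower, or 262 and 32 with library totals. By edgeR 0 of 78 other iron genes were called, with 23 at an unadjusted p under 0.05 and 0 by DESeq2. SCs at P8 had 4 donors of at least 10 cells and were not fitted: *SLC40A1* stood at 9.65, 12.7, 16.1 and 36.7 CPM, and *FTH1* at 3822, 6063, 10176 and 10667.

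Summed over 6 genes of muscle fibres, SCs had 0.727 CPM at P0 (range 0 to 1.69), 738 at P2 (range 17.6 to 1827), 2336 at P5 (28.4 to 4949) and 3023 at P8 (711 to 8602), while FAPs had means of 0.970, 15.6, 31.5 and 47.4. *SLC40A1* in SCs was lower at P2 than at P0 and higher at P5 than at P2, so the 2 moved in opposite directions over the first step and in the same direction over the second, and the part of these genes in it was not tested. Markers of other types also differed between P0 and the later passages. The 4 FAP markers summed to 1636 CPM in SCs at P0 and to 5608, 5598 and 5522 at P2, P5 and P8, beside 4171, 17968, 23303 and 17131 in FAPs. The 5 SMMC markers summed to 73.8, 641, 592 and 876 in SCs and to 54.7, 609, 476 and 900 in FAPs. The 6 lymphocyte markers summed to 5.10, 669, 502 and 1272 in FAPs (2, 3, 3 and 4 of 6 at 0) and to 6.29, 55.9, 61.4 and 607 in SCs (2, 3, 3 and 5 of 6 at 0). All these sums are means over every donor with at least 10 cells, not only the 6 compared. From P0 to P8 that was 9, 9, 7 and 4 donors in SCs and 9, 8, 9 and 9 in FAPs. The part of these markers in the passaging values was not tested.

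Levels were also compared between kinds of culture, a comparison added after the values were seen. FAPs at P5 are given first, as the group in which the most members had donor ranges apart (5 of 7, where 39.8% of all genes did). At P5, FAPs in the cultures sorted for SCs had *FTH1* at 3281, 4437 and 4891 CPM in the 3 donors, below the 6 donors of unsorted and FAP cultures (6667 to 11133). Their *SLC40A1* stood at 2.59, 2.75 and 3.39 against 5.97 to 9.49, their *NCOA4* at 48.5, 53.2 and 66.6 against 69.8 to 105, and their *TFRC* was higher, at 2.26, 3.21 and 3.52 against 0.855 to 1.95. These 3 *TFRC* values rested on 2, 7 and 57 UMIs in 31, 70 and 593 cells (donors 6, 10 and 5). The 3 *SLC40A1* values rested on 42, 6 and 3 UMIs (donors 5, 10 and 6). SCs of the same cultures had *FTH1* at 2096, 2524 and 2748 against 4792 to 6107 in 4 other donors. These values are a description, as the comparison was picked after they were seen. Exact tests over donors from P2 on, adjusted over 35 tests, gave a smallest adjusted p of 0.12. With 3 against 6 donors such a test cannot give an unadjusted p below 0.024, and nothing is read from it.

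In FAPs at P5, 5 of 7 members had ranges that stood apart between the cultures, where 39.8% of 10805 genes did. The same counts were 3 of 7 for FAPs at P2 (46.8% of genes), 2 of 7 for SCs at P2 (16.4%), 1 of 7 for SCs at P5 (19.9%) and 0 of 7 for FAPs at P8 (9.83%). For FAPs at P2 the SC cultures had only 2 donors, with 19 and 12 cells. At P0, before the sort, *TFRC* alone stood apart among members, in FAPs (5.88% of genes) and SCs (2.29%), and it was lower in the later SC donors. Animal and culture cannot be told apart, as each animal had 1 kind of culture. FAP markers summed to 7859 CPM in FAPs of SC cultures at P5, against 23899 in unsorted and 38152 in FAP cultures. At P2 they summed to 5525 (n = 2), against 23414 and 20817. SC markers summed to 45.3 (14.5 to 89.2) in FAPs of SC cultures at P5, against 18.1 and 18.5. At P2 they summed to 50.9 (27.2 and 74.7 in 2 donors), against 12.5 and 14.2. The part of the FAP and SC markers in the members' values was not tested.

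**Figure D4:**
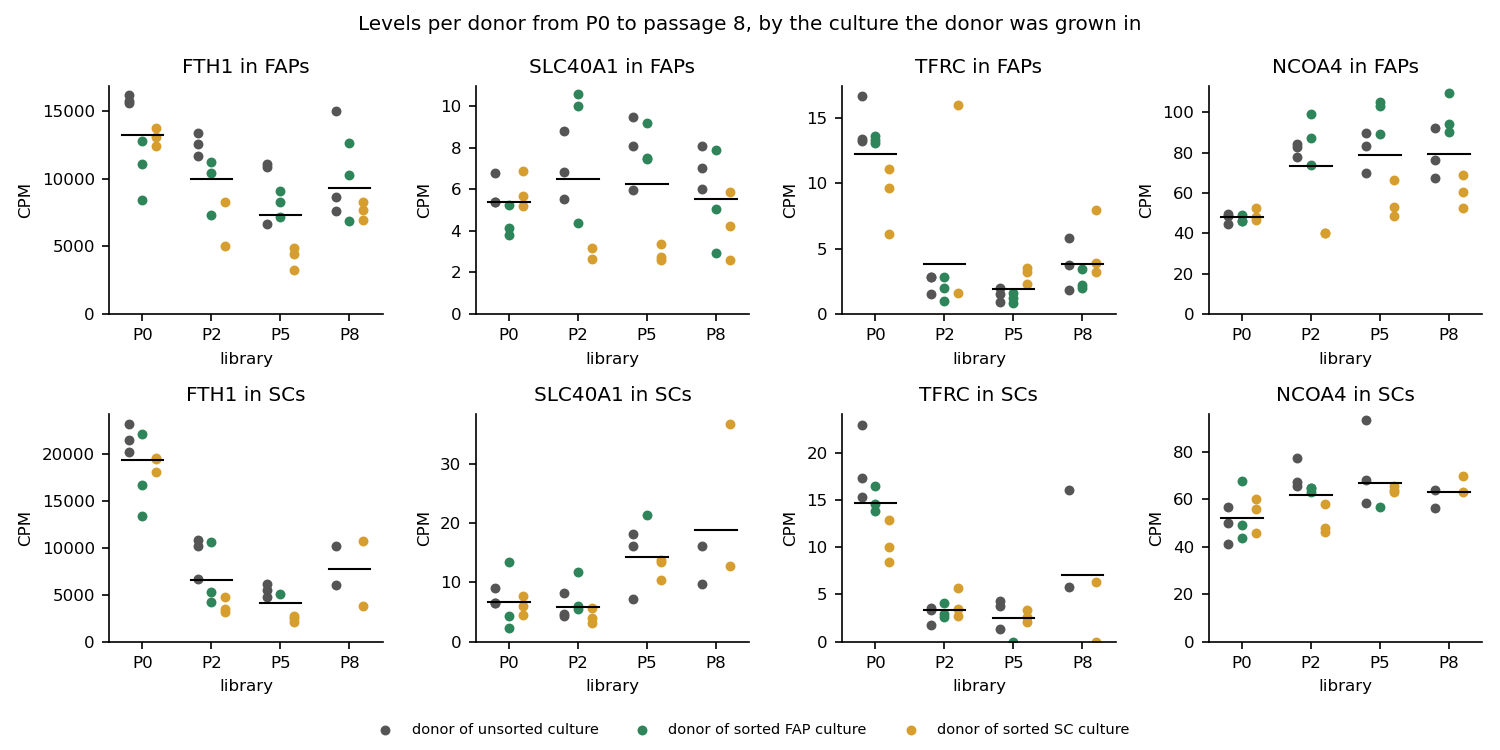
*FTH1*, *SLC40A1*, *TFRC* and *NCOA4* in CPM in FAPs (top) and SCs (bottom) from P0 to P8, with 1 point per donor coloured by the culture its cells were grown in and black bars for the mean over donors. FAPs of SC cultures lie below the others at P5 in *FTH1*, *SLC40A1* and *NCOA4* and above them in *TFRC*. Their *TFRC* points rest on 2, 7 and 57 UMIs and their *SLC40A1* points on 3, 6 and 42. In FAPs at P5, 39.8% of all genes had donor ranges apart between SC and other cultures.

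Age of the animal was not part of the selection, so the members were tested there. No difference between calves and adults passed. In Muscle, 0 of 5 tested members were called in FAPs (1.32% of all genes were) and 0 of 3 in VECs (0.796%), and at P0 0 of 7 in FAPs (0%) and 0 of 7 in SCs (0%). At an unadjusted p under 0.05 the counts were 1, 0, 1 and 2, and DESeq2 also called 0 in each. The largest value was that of *SLC40A1* in P0 SCs, at 5.09 ± 2.10 CPM in 5 calves and 8.72 ± 3.42 in 4 adults (log2FC -0.90 ± 0.35, adjusted p = 0.43 by edgeR). *FTL* in the same cells was at 3111 ± 425 in calves and 4436 ± 880 in adults (-0.51 ± 0.16, adjusted p = 0.42), and *FTH1* in muscle FAPs at 2922 ± 437 and 2522 ± 453 (0.33 ± 0.14, adjusted p = 0.23).

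Of the other iron genes, *ALAD*, the enzyme of the porphobilinogen step of haem synthesis, was called in muscle FAPs, at 72.7 CPM in calves and 19.4 in adults (1.96 ± 0.28, adjusted p = 0.0016 by edgeR). The counts were 0 of 28 in muscle VECs, 0 of 81 in P0 FAPs and 0 of 75 in P0 SCs, with 4, 6 and 13 at an unadjusted p under 0.05 and 0 by DESeq2. In muscle FAPs, library totals gave 23 higher and 74 lower calls over all genes where TMM gave 35 and 46.

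Cells that the deposited annotation assigns to S or G2/M phase, called cycling here, were compared with cells assigned to G1 in the same donors, again outside the selection. Such calls are made from cell cycle genes, so the levels of those genes are a description: *MKI67*, a proliferation marker, was at 222 ± 14.8 CPM in cycling and 32.6 ± 6.75 in G1 cells of P0 FAPs (n = 9), and at 271 ± 135 (n = 8, range 53.1 to 416) and 5.46 ± 1.97 (n = 9) in P2 SCs. *SLC40A1* was lower in the cells assigned to cycling phases. In P2 SCs it stood at 1.81 to 6.47 CPM in cycling cells (8 donors, the middle pair at 2.95 and 3.34) and at 4.64 to 11.8 in G1 cells of 9 donors. These values came from 131 and 319 UMIs in all, and 4 of the 8 donors had 1 to 3 UMIs in cycling cells. The log2FC was -1.33 ± 0.24 (adjusted p = 4.7e-04 by edgeR), 7 of 8 paired donors were lower, and 4.88% of all genes were called. It was 1 of 6 members tested to be called. After thinning to the smallest total the gene was below the filter. In P0 FAPs, 9 of 9 donors were lower, at 4.84 ± 1.04 against 8.41 ± 1.93 CPM (-0.87 ± 0.16, adjusted p = 1.5e-04), short of the fold rule, so that 0 of 7 members were called in FAPs, 5 having an unadjusted p under 0.05 and DESeq2 calling 0. There 5.07% of all genes were called.

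Both ferritin subunits were lower in cycling FAPs at P0 in 9 of 9 donors. *FTL* was at 2993 ± 607 against 4005 ± 721 CPM (-0.49 ± 0.12, adjusted p = 0.0043 by edgeR) and *FTH1* at 12908 ± 2551 against 15094 ± 2182 (-0.30 ± 0.12, adjusted p = 0.066). These fits did not pair the donors. With the donor as a replicate block the *FTH1* value was -0.32 (adjusted p = 7.7e-08). In the same block *FTL* had -0.50 (adjusted p = 2.0e-06 by edgeR) and *SLC40A1* -0.84 (adjusted p = 9.2e-06). *NCOA4* (-0.26, adjusted p = 0.0012), *SLC39A14* (-0.23, adjusted p = 0.0016) and *IREB2* (-0.25, adjusted p = 0.032) were also lower there. *TFRC* had 0.06 (adjusted p = 0.69), and every one of these values was under the fold rule. In P2 SCs *FTH1* was lower in cycling cells in 8 of 8 donors (-0.53 ± 0.29, adjusted p = 0.21, and -0.44 with adjusted p = 6.1e-09 in the block). *FTL* went both ways there, lower in 5 of 8 donors and higher in 3 (-0.37 ± 0.19, adjusted p = 0.19 by edgeR, and -0.20 with adjusted p = 0.19 in the block). *TFRC* in P0 FAPs was at 12.5 ± 3.02 in cycling and 10.99 ± 4.00 in G1 cells (0.09 ± 0.20, adjusted p = 0.75). Among the other iron genes, 2 of 78 were called in FAPs, *PCBP4* (-1.20 ± 0.13), an RNA-binding protein of the family that delivers iron to ferritin, and *BMP2* (-1.01 ± 0.36, or -0.98 in the block and so under the fold rule, and also not called with DESeq2, without the filter or with library totals). In SCs 2 of 72 were called, *BMP2* (-2.51 ± 0.76, or -1.36 in the block) and the haem transporter *SLC48A1* (-1.19 ± 0.40, or -0.57 in the block, and also not called without the filter, with library totals or with at least 30 cells).

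**Figure D5:**
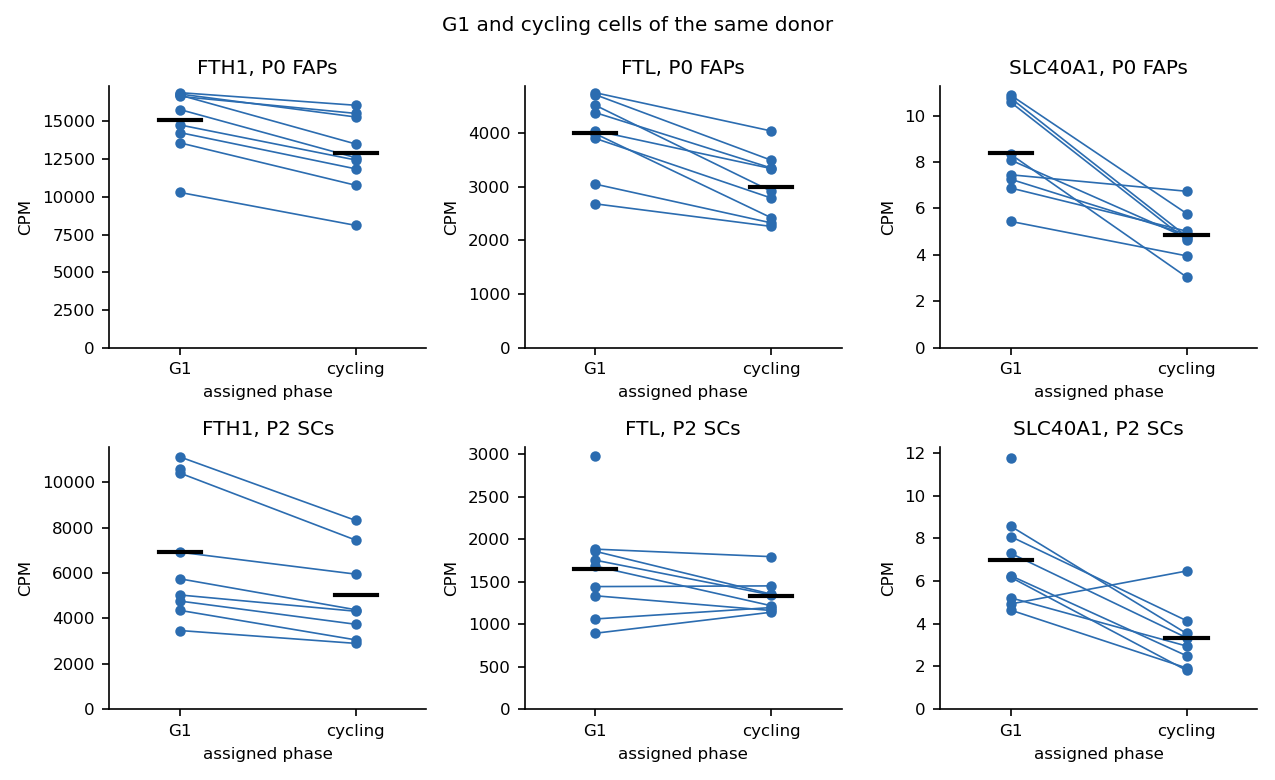
*FTH1*, *FTL* and *SLC40A1* in CPM in G1 and cycling cells of P0 FAPs (top) and P2 SCs (bottom), with lines joining the same donor, 1 donor of the SCs having G1 cells only, and black bars for means. Every line falls in the 3 FAP panels and for *FTH1* in SCs, and 7 of 8 fall for *SLC40A1* in SCs.

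Over the 19 combinations of type and library with 3 or more donors, the genes most like *FTH1* by Pearson's r of log2(mean CPM + 1) were *CXCL8* (0.91), *UBN1* (0.90) and *SOAT1* (0.89), among 7739 searched. For *FTL* they were *C14H8orf82* (0.95), *ANKRD11* (0.94) and *UBE2F* (0.93), for *SLC40A1* *APLP2* (0.90), *LDB1* (0.88) and *MYO9A* (0.87), and for *TFRC* *SERPINB2*, *HSPE1* and *DHX30*, at 0.73, 0.72 and 0.72. *FTH1* and *FTL* had an r of 0.89 with each other, and *SLC40A1* had -0.27 and -0.24 with them. The 19 points share 5 libraries and their depths, so these values are descriptions.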

How the data were processed

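Single-cell 3′ libraries were sequenced, with 1 deposited matrix per timepoint. Per the study's methods, the authors aligned reads to the bovine genome with Ensembl 101 annotation in Cell Ranger 6.0.1, assigned donors by genotype, removed cells over 3 median absolute deviations from the median, and named cell types from clusters. The deposited matrices hold raw UMI counts, which were used as they are. The deposited cell table gives each kept cell its donor, type and phase, and the authors' percent of mitochondrial UMIs per cell, whose library medians ran from 2.11 to 3.81. The 9 table columns of other per-cell values were not used. Treatment of doublets beyond genotype is not given in the sources used here, and no caller was run.

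UMIs were summed per library, type and donor with at least 10 cells, giving 159 sums of 42591 UMIs or more. Each comparison was fitted on its own groups over all genes with edgeR 4.0.16 in R 4.3.3 (filterByExpr, TMM scaling, quasi-likelihood F test, Benjamini-Hochberg adjustment). Genes were called at a log2FC beyond 1 in either direction with adjusted p under 0.05. The SE given with a log2FC is its absolute value divided by the square root of the F statistic. Alternatives were DESeq2 1.42.0, no filter, library totals, at least 30 cells, thinning, a donor block, sex as a covariate and leaving out donors. The members and gene lists were chosen with earlier results of these data known. Named genes were the members, per comparison and list up to 3 called genes with the largest absolute log2FC, and the 3 genes most like each of 4 members; other genes named were chosen after their values were seen. On simulated data, changes of 1.5 on the log2 scale were recovered for 98.5% of 67 changed genes for FAPs (among 9208 tested) and 79.1% of 67 for LECs (among 3034) of the P0 comparison. The changed genes were drawn only from those above a floor of expected mean count, so these shares do not cover members with few UMIs.

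Samples of one donor are from the same animal, so numbers pair them. The median same-donor correlation of deviations from group means was 0.014 to 0.088 between Muscle and P0, and every donor exceeded 0.1 in the comparisons of passages and of phases. P-values measure the spread between animals within single libraries.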

Additional observations from a re-analysis of the deposited data

Results flagged for a closer look

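Among 133 groups of 4 to 10 donors, 14 held a donor far from the others, where the criterion nominally marks about 1 group in 20 by chance. Whether that rate holds for groups of very few UMIs was not tested. *FTH1* was 39408 CPM in P0 LECs of donor 6 (next 22195) and 11623 in P0 SMMCs of donor 9 (next 6896). *FTL* was 2974 in P2 SCs of donor 8 (next 1854) and 1736 in P5 FAPs of donor 9 (next 1238). *TFRC* was 14.9 in muscle LECs of donor 10, from 1 UMI with the other 3 donors at 0, and 16.01 in P2 FAPs of donor 10 (next 2.86). *SLC40A1* was 10.8 in P0 VECs of donor 5 (next 5.03). *SLC39A14* was 19.6 in muscle SMMCs of donor 8, 81.7 in P0 FAPs of donor 5 and 82.6 in P8 FAPs of donor 2. *NCOA4* was 0 in muscle LECs of donor 8 (next 29.7) and 93.4 in P5 SCs of donor 2 (next 68.2). *IREB2* was 21.3 in P2 FAPs of donor 10 (next 11.6) and 7.09 in P5 SCs of donor 4 (next 10.9).

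In 2 cases all paired donors moved one way in one cell type and the opposite way in another. From Muscle to P0, *NCOA4* was higher in 7 of 7 donors in SMMCs and lower in 7 of 7 in macrophages, with log2 ratios of mean CPM of 0.99 and -1.34, which differ by 2.33. From P0 to P2, *SLC40A1* was higher in 6 of 6 donors in FAPs and lower in 6 of 6 in SCs, with log2 ratios of 0.59 and -0.42, which differ by 1.01. Neither difference was tested.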

How the results depend on the processing

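The number of called iron genes, members included, was within 1.5 times the reported one in 121 of 142 recomputed counts. That total includes leaving out donors in the age comparisons at P0, where the reported fits called 0 genes of any kind. Thinning moved 9 counts and kept 8 within that bound, and dropping the filter moved 7 and kept 10. Between Muscle and P0, thinning to the smallest total gave 22 (FAPs, reported 43), 4 (SCs, 18), 3 (SMMCs, 14), 7 (macrophages, 11) and 5 (LECs, 10), and dropping the filter gave 49 (SCs), 42 (VECs, 24), 31 (SMMCs), 33 (macrophages) and 24 (LECs). With at least 30 cells SMMCs gave 25, and macrophages and LECs could not be fitted. From P2 to P5, FAPs (1) gave 0 with library totals or thinning. SCs (1, *SLC40A1*) gave 2 with DESeq2, 0 thinned and 3 with the replicate block. From P5 to P8, FAPs (1, *TFRC*) gave 0 thinned. Calves against adults gave 2 in muscle FAPs (1) and 1 in muscle VECs (0) without the filter. Cycling cells gave 1 in FAPs (2) with library totals and 0 in SCs (3) thinned. The cause of these changes was not tested, apart from the smaller counts that thinning makes. Leaving out a donor gave 9 to 13 calls in LECs (an alternative added after seeing the data), 1 in calf muscle FAPs, and 0 in the other age comparisons. The culture comparison was added after seeing the data.

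Between calves and adults, member log2FC values near 0 changed sign: in muscle, *SLC39A14* in FAPs (-0.3875 to 0.047 over donors left out) and *FTH1* in VECs (-0.0031 to 0.084, also -0.0009). At P0 in FAPs, *SLC40A1* ranged from -0.2414 to 0.0022, *SLC39A14* from -0.0865 to 0.1833 and *NCOA4* from -0.0587 to 0.0232 without 1 donor, and *NCOA4* was 0.0009 without the filter and 0.01 thinned. At P0 in SCs, *TFRC* ranged from -0.4065 to 0.0562, *NCOA4* from -0.1135 to 0.1033 and *IREB2* from -0.0605 to 0.214 without 1 donor, while *TFRC* reached 0.0416 and *SLC39A14* 0.0604 thinned and *NCOA4* 0.0302 with sex as a covariate. In cycling SCs, *SLC39A14* reached 0.0325 with the replicate block. None of these was called.

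The replicate block lost the calls of *BMP2* in cycling FAPs, of *SLC48A1* in cycling SCs and of *STEAP1* in SCs from P0 to P2 (1.12, adjusted p = 0.085 by edgeR), and no other call of a named gene. These 3 calls were lost elsewhere too: *BMP2* with DESeq2, no filter and library totals (-0.98, -0.96 and -0.94), *SLC48A1* with no filter, library totals and at least 30 cells (adjusted p = 0.064, 0.056 and 0.051 by edgeR), and *STEAP1* with no filter (adjusted p = 0.071). The call of *FBXL5* in P0 FAPs was lost without the filter (-0.85), that of *NEO1* in P2 SCs after thinning (0.59), and that of *STEAP4* in P5 FAPs without the filter (0.99), with library totals (0.90) and after thinning (0.98). Between Muscle and P0, some member values were larger without the filter than reported. *FTH1* then had a log2FC of 3.63 in SCs, 2.67 in FAPs and 2.58 in VECs. *FTL* had 2.99 in SCs and 1.82 in LECs, and *NCOA4* had 0.46 in FAPs. Totals changed the median log2FC of all genes by -0.15 (P2 against P0) to 0.13 (P8 against P5) in FAPs. *TFRC*, *SLC40A1* and *IREB2* had few UMIs in the rarer types.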
